A study of Mus musculus with 6 samples.

Results

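Interferon-stimulated genes are the genes that cells switch on when they sense an interferon. Type I interferons act through the receptor chains IFNAR1 and IFNAR2, and type II interferon acts through IFNGR1 and IFNGR2. Both receptors pass the signal to JAK kinases and STAT factors. A complex that holds IRF9 binds interferon-stimulated response elements (ISRE), and STAT dimers bind gamma-activated sequences (GAS). The products bind or degrade viral RNA, block viral entry or attract lymphocytes, and many are kept at a low basal level in resting myeloid cells. The rule took 46 such genes by symbol and used no measured value, although the list was drawn up with earlier results of these data known. All 46 were found among the 37043 symbols of the deposited table.

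The genes were measured by bulk RNA-seq in bone marrow-derived basophils (BMBAs) of wild-type C57BL/6J mice. Bone marrow cells had been cultured for 7 days with a cytokine at 0.3 ng/mL, named as IL-3 in the methods, and basophils were enriched with beads against CD49b. The cells were then given control PBS or IL-3 at 10 ng/mL for 6 h (3 cultures each). Both groups had therefore grown in the cytokine before the comparison, and the PBS group is not a culture that never saw IL-3. The comparison asks how IL-3, which signals through JAK2 and STAT5, changes the transcripts of basophils.

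Library totals ranged from 10537540 to 13999287 counts, and every pair of libraries differed by more than sampling noise (chi-square per degree of freedom 2.94 or more). Basophil markers were abundant, and 8 of 10 were called higher in IL-3, 1 lower and 1 not called. The most abundant in PBS was Prss34, a basophil protease, at 5615 ± 323 CPM. BMBAs are enriched from a mixed culture, and RNA of other cells was present. All 12 monocyte and macrophage markers had counts, and Lyz2, the lysozyme gene of these cells, was at 10456 ± 432 CPM in PBS and 5348 ± 316 in IL-3. Of these 12 markers 10 were called lower and 2 higher, and their summed level ran from 11960 to 12910 CPM in the PBS libraries and from 6247 to 6868 CPM in the IL-3 libraries. In bulk samples, fewer cells of a type and less RNA per cell cannot be told apart. The part of other cells in the falls and rises described here was not tested. Plasmacytoid dendritic cells are a main source of type I interferon. Their markers summed to between 24.55 and 26.07 CPM in PBS and between 12.24 and 15.12 CPM in IL-3. Of the 4 tested, Tcf4 was called lower and took most of that sum, at 19.4 ± 1.47 and 9.21 ± 1.20 CPM. Siglech, Ccr9 and Spib had counts in every library and were not called, and Cd209d had 0 counts in every library. Of other marker lists, 2 of 7 conventional dendritic cell genes were lower, 5 of 7 mast cell genes were higher, 3 of 7 neutrophil genes were higher and 1 lower, and 0 of 5 T, B and NK cell genes were called (edgeR, 0 at an unadjusted p below 0.05).

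IL-3 moved the interferon-stimulated genes in both directions and left most of them without a call. Of the 46 genes, 40 had enough counts to be tested, 9 rose and 8 fell with IL-3 at an adjusted p below 0.05 (edgeR quasi-likelihood test), and 23 were not called. In all, 38.2% of the 16675 genes tested were called, 18.0% higher and 20.2% lower, so the 9 that rose (22.5% of the 40) and the 8 that fell lay near the background in each direction. In 8 of the 40 all IL-3 libraries lay above all PBS libraries and in 11 below them, where the shares over all genes tested were 23.8% and 24.4%. The median log2 fold change of the 40 was -0.22, against -0.0033 over all genes tested. By log2 fold change, the rises were led by Ifitm6, Zbp1 and Gbp5, of which Gbp5 rested on at most 24 counts per library, followed by Ifitm1, and the falls by Cxcl10, Trim25 and Samhd1. Of the 17 called genes, 4 changed by more than 2-fold, namely Ifitm6, Zbp1, Gbp5 and Cxcl10. Among the 23 genes without a call, 21 had a negative and 2 a positive log2 fold change, where 48.8% of all 10300 genes without a call were negative. The 21 include Ddx58, Ifi204 and Ifi27l2a, which lay near 0 and changed sign under alternatives. Scaling by library totals instead of TMM, which shifted the median of all genes to -0.17, gave 7 higher and 18 lower genes. Under that scaling 10.2% of all genes tested were higher and 30.2% lower, so the 7 (17.5% of the 40) and the 18 did not lie near the background there.

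**Figure D1:**
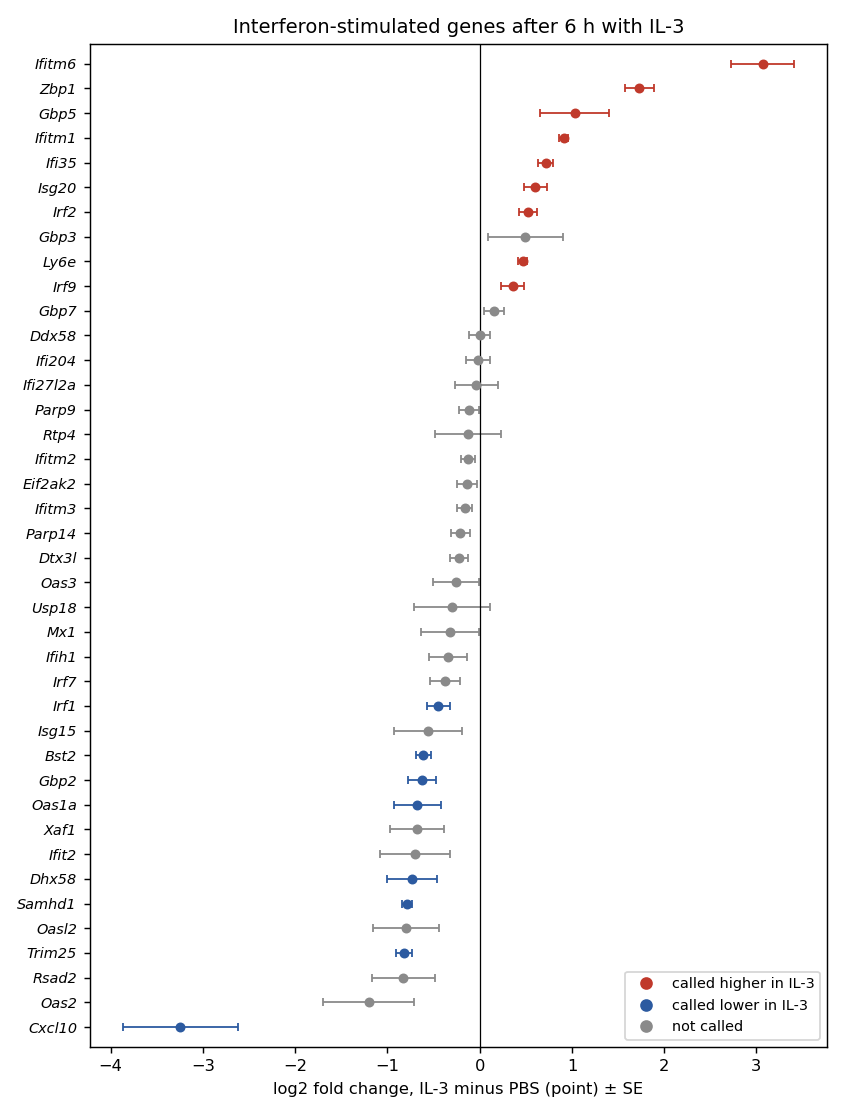
Log2 fold change (IL-3 minus PBS) of the 40 tested interferon-stimulated genes, ordered by value, with bars of 1 SE from edgeR. Of these, 9 were called higher (red), 8 were called lower (blue) and 23 were not called (grey).

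The levels of the genes spanned a wide range. Expressed as CPM per kb of the longest coding transcript, Ifitm1 was the highest of the 46 in both groups, with a level of 3338 ± 33.1 in PBS and 6278 ± 475 in IL-3. The next were Ifitm2, Ly6e, Ifitm3 and Bst2, at 441, 151, 96.0 and 65.1 CPM per kb in PBS. The lowest was Mx2 at 0.0113 CPM per kb in PBS. Ifitm1 alone took 77.3% to 77.9% of the summed level per kb of the 46 genes in the PBS libraries and 85.6% to 87.4% in the IL-3 libraries. Without it, the sum of the other 45 ran from 945 to 992 CPM per kb in PBS and from 882 to 993 CPM per kb in IL-3, and these ranges overlapped.

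**Figure D2:**
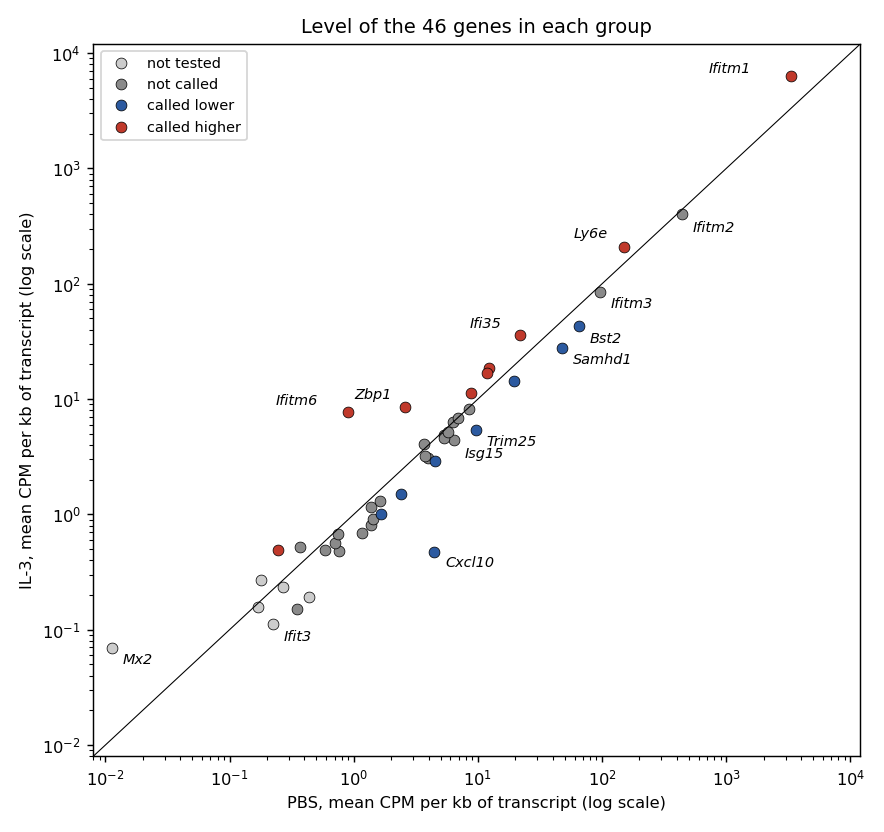
Mean level of each of the 46 genes in PBS (x axis) and IL-3 (y axis), in CPM per kb of the longest coding transcript on log scales, with n = 3 libraries per group and the line of equal levels. Ifitm1 stands far above the rest, Ifitm6 and Zbp1 lie above the line, and Cxcl10 lies farthest below it.

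Precision followed the level. Of the 46 genes, 21 had at least 10 CPM in the higher group. All 21 were tested, 7 were called higher and 5 lower, and their median SE was 0.101 on the log2 scale. The other 25 were below 10 CPM, 19 of them were tested, 2 were called higher and 3 lower, and their median SE was 0.34. The genes that did not pass the filter were Ifit1, Ifit3, Oasl1, Mx2, Ifi44 and Cxcl9, with at most 21 counts in any library. With no filter on low counts none of these 6 was called by edgeR and 1 had an unadjusted p below 0.05, namely Ifit1 (adjusted p 0.0745, unadjusted p 0.0166). DESeq2 called none of the 6 either, and gave no adjusted p for 3 of them. Ifit1 passed the filter in 4 of the fits with 1 library left out and was called lower in that without PBS replicate 3 (log2 fold change -1.38, adjusted p 0.0389).

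The promoters were searched for the letters of the elements named above, on either strand, in 250 bases before and 50 after the annotated start. RefSeq promoter sequences (GRCm38.p6) were found for 34 of the 46 genes. The ISRE core, GAAA followed by any 2 bases and GAAA, occurred in 18 of the 34 (52.9%), against 3.89% of 10841 tested genes with a promoter sequence. The GAS palindrome TTCNNNGAA, which is bound by STAT dimers, STAT5 among them, occurred in 13 of the 34 (38.2%), against 8.59% of tested genes. Stretches of 60 bases around a match, each read on the strand of its gene, are printed as examples for genes that fell or rose, for Isg15, which was not called, and for Ifit1, which did not pass the filter. Matches of both kinds overlapped in Bst2 and Ifitm3.

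ISRE matches are shown for Isg15 (chr4:156200856-156200915, minus strand), Ifit1 (chr19:34640769-34640828, plus strand), Cxcl10 (chr5:92349068-92349127, minus strand), Gbp2 (chr3:142620579-142620638, plus strand) and Bst2 (chr8:71537565-71537624, minus strand), all but the first 2 called lower, and for Irf2 (chr8:46739495-46739554, plus strand), which was called higher. The capitals mark every letter of a match of either kind, and Bst2 and Irf2 also hold a GAS match in the stretch.
Isg15: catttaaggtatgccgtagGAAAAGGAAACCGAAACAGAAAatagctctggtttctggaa
Ifit1: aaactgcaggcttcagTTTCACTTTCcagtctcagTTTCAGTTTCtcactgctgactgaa
Cxcl10: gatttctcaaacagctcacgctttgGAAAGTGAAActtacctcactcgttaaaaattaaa
Gbp2: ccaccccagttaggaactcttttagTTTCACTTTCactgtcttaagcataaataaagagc
Bst2: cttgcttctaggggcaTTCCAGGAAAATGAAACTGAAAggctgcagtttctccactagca
Irf2: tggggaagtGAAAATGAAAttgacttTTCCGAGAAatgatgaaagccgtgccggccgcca

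GAS matches are shown for Irf1 (chr11:53769898-53769957, plus strand) and Samhd1 (chr2:157135287-157135346, minus strand), both called lower, and for Isg20 (chr7:78913325-78913384, plus strand), Gbp5 (chr3:142496856-142496915, plus strand) and Ifitm6 (chr7:141016893-141016952, minus strand), called higher, again with the match in capitals.
Irf1: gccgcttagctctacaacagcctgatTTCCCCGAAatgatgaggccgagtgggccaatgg
Samhd1: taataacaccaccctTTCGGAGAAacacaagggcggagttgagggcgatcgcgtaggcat
Isg20: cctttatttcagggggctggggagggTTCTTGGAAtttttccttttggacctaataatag
Gbp5: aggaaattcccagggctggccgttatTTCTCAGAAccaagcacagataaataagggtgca
Ifitm6: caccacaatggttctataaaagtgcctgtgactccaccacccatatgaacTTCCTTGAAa

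The matches were set beside the calls. A GAS match was present in 5 of the 7 called-higher genes with a promoter sequence, in 4 of the 7 called lower and in 4 of the 15 not called. An ISRE match was present in 2 of the 7 called higher, in 4 of the 7 called lower and in 10 of the 15 not called. These are counts of letters in a window and carry no test.

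Among the transcription factors, Irf2 and Irf9 were called higher, Irf1 was called lower and Irf7 was not called. IRF1 activates and IRF2 mostly restrains interferon-responsive promoters. Irf1 (chromosome 11, 53770014 to 53778374) had 44.6, 42.4 and 37.2 CPM in the PBS libraries and 36.4, 31.2 and 23.9 CPM in the IL-3 libraries. The highest IL-3 library lay just below the lowest PBS library, and the log2 fold change was -0.45 (SE 0.125, adjusted p 0.00955). Without IL-3 replicate 3 it was -0.29 (adjusted p 0.048). Irf2 (chromosome 8, 46739732 to 46847458) had 25.9, 29.1 and 33.2 CPM in PBS and 44.0, 42.6 and 40.0 in IL-3. The groups did not overlap, and Irf2 rose by 0.52 on the log2 scale (SE 0.0969, adjusted p 0.000466).

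Irf9, which encodes the DNA-binding subunit of the complex that binds ISRE, had 23.2, 26.4 and 28.3 CPM in PBS and 32.1, 40.1 and 27.5 in IL-3. The groups overlapped, since IL-3 replicate 3 lay below PBS replicate 3. Its log2 fold change was 0.36 (adjusted p 0.0353). It was no longer called without PBS replicate 1, PBS replicate 2, IL-3 replicate 1 or IL-3 replicate 2, where the log2 fold change was 0.28, 0.37, 0.38 and 0.20. Irf9 also shares an exon region with Rnf31 on the same strand. Irf7, the amplifier of type I interferon production, had 9.57, 8.77 and 8.19 CPM in PBS and 7.50, 7.16 and 5.82 in IL-3. All 3 IL-3 libraries were lower, and the gene was not called (log2 fold change -0.38, adjusted p 0.0762).

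The IFITM genes, which encode small membrane proteins that block virus entry, lie within 63.1 kb of chromosome 7, and their members differed. Ifitm1 (chromosome 7, 140967221 to 140969825) had 2918, 2975 and 2939 CPM in PBS and 5213, 5389 and 6010 in IL-3. The PBS libraries were tightly grouped and all IL-3 libraries lay well above them, giving a log2 fold change of 0.91 (SE 0.0472, adjusted p 2.85e-10). Ifitm6 (chromosome 7, 141015699 to 141017924) was rare in PBS, with 15, 8 and 3 counts, and reached 68, 61 and 91 counts in IL-3. In CPM it went from 0.731 ± 0.482 to 6.28 ± 1.06 (SD, n = 3 each), an 8.37-fold rise with a log2 fold change of 3.07 (SE 0.340, adjusted p 2.69e-06). The 10 neutrophil markers, none of them at 0 in every library, summed to between 139 and 172 CPM in PBS and between 323 and 400.3 CPM in IL-3, with 3 of the 7 tested called higher and 1 lower. Of those called higher, Ly6g had 0, 4 and 2 counts in PBS and 23, 35 and 22 counts in IL-3. Cxcr2 went from 60.5 ± 2.65 to 193 ± 7.95 CPM and Retnlg from 11.3 ± 2.01 to 69.2 ± 5.53 CPM. Mpo was called lower, from 42.9 ± 2.67 to 27.7 ± 1.66 CPM, and S100a8, S100a9 and Ngp were not called. The part of neutrophil RNA in the rise of Ifitm6 was not tested.

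Their neighbours Ifitm2 and Ifitm3 were not called. Ifitm2 had 289, 296 and 282 CPM in PBS and 286, 223 and 286 in IL-3, where replicate 2 stood apart from the other IL-3 libraries. Ifitm3, the best known antiviral member, had 58.3, 69.3 and 67.7 CPM in PBS and 57.2, 53.5 and 63.4 in IL-3. The log2 fold changes were -0.13 (SE 0.0780) and -0.16 (SE 0.0834). Ifitm3 was called at -0.24 without PBS replicate 1 (adjusted p 0.0386). Ifitm2 shared 48.5% of its 50-mers with transcripts of other symbols, chiefly Gm45717, so its own count is uncertain. Ifitm3 shared 10.0% and Ifitm1 5.02%, and Ifitm6 shared none. With the counts of Gm45717 added, Ifitm2 was at -0.14 and again not called.

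**Figure D3:**
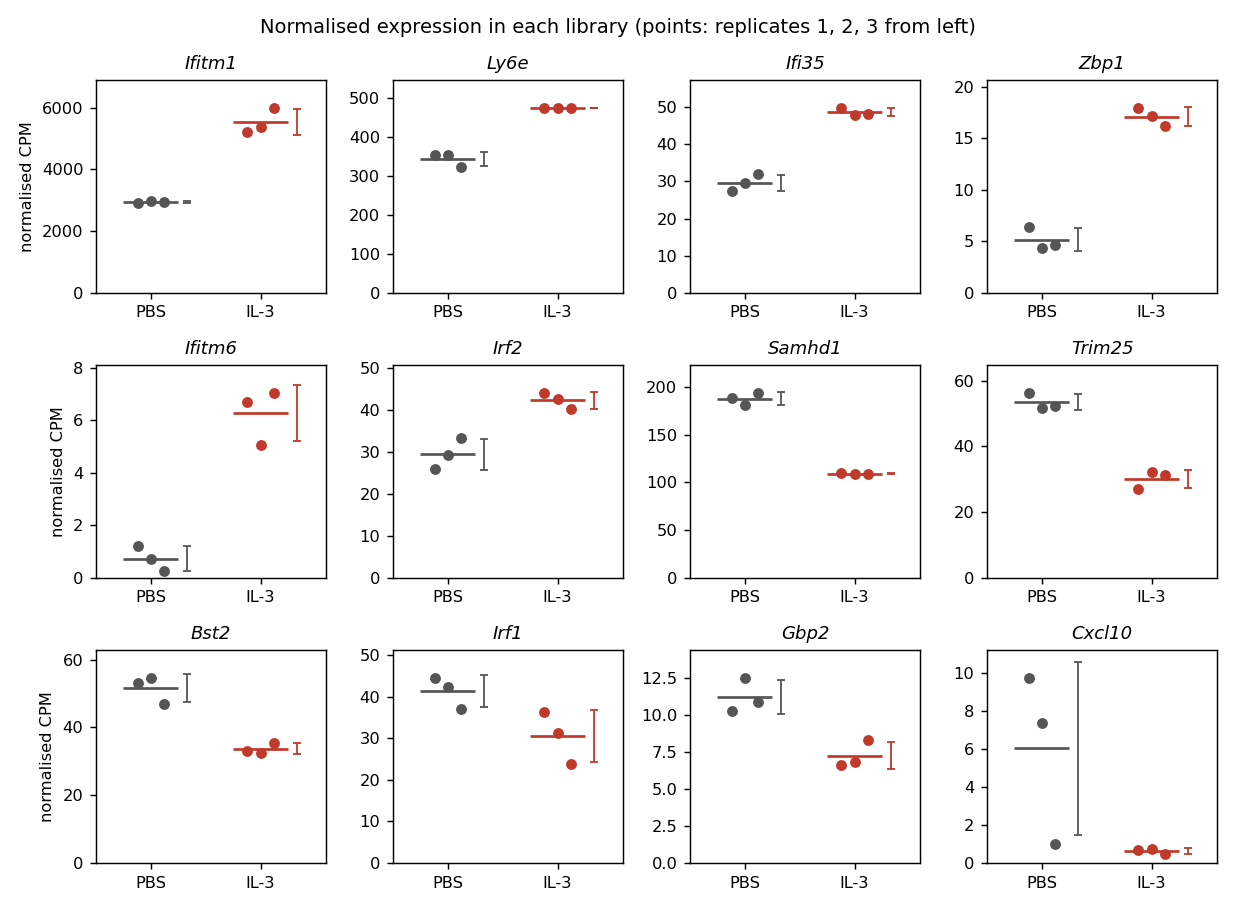
Normalised CPM of 12 of the genes in each of the 3 PBS and 3 IL-3 libraries, on linear axes from 0, with lines at the group means and bars of 1 SD beside them. The IL-3 libraries lie apart from the PBS libraries in every panel, narrowly for Irf1 and Cxcl10, and PBS replicate 3 of Cxcl10 lies far below the other PBS libraries.

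Among the sensors of foreign nucleic acid, Zbp1 rose and the others did not. ZBP1 binds Z-form nucleic acid and can trigger cell death. Zbp1 (chromosome 2, 173206612 to 173218923) had 6.38, 4.30 and 4.67 CPM in PBS and 18.0, 17.2 and 16.1 in IL-3. The groups were widely separated, with a 3.32-fold rise and a log2 fold change of 1.73 (SE 0.159, adjusted p 3.26e-07). No 50-mer of its transcripts occurred in another gene.

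The RNA helicases of the RIG-I family gave other values. Ddx58, which encodes RIG-I, was at 24.4 ± 3.77 CPM in PBS and 24.3 ± 1.23 in IL-3 (SD, n = 3 each), with an SE of 0.117 on the log2 scale. Ifih1, which encodes MDA5, had 11.8, 8.15 and 6.69 CPM in PBS and 8.59, 6.41 and 6.21 in IL-3. It was not called (log2 fold change -0.34, adjusted p 0.218), and was at -0.08 without PBS replicate 1 and -0.51 without PBS replicate 3. Dhx58, which encodes the regulator LGP2, fell from 4.03 ± 0.827 to 2.42 ± 0.751 CPM (log2 fold change -0.73, adjusted p 0.0453). That call was close to the threshold and was lost under several alternatives, without PBS replicate 1 or 2 or IL-3 replicate 1 or 2 among them (log2 fold change -0.72, -0.59, -0.80 and -0.50). Its exons also overlap those of Dhx58os on the opposite strand. Ifi204, a DNA sensor, was at 16.0 ± 1.69 and 15.8 ± 1.62 CPM (adjusted p 0.933), and it shared 50-mers with 12 other symbols, Ifi211 among them.

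The restriction factors split. SAMHD1 depletes the deoxynucleotides that reverse transcription needs, and Samhd1 (chromosome 2, 157097533 to 157135265) had 189, 181 and 194 CPM in PBS and 109, 109 and 108 in IL-3. The IL-3 libraries were nearly identical and far below PBS, and Samhd1 fell by 0.79 on the log2 scale (SE 0.0556, adjusted p 1.38e-08). Bst2, whose product tethers budding virus to the cell surface, had 53.2, 54.6 and 46.9 CPM in PBS and 33.1, 32.6 and 35.5 in IL-3, without overlap (log2 fold change -0.61, adjusted p 2.70e-05). Isg20, which encodes an RNA exonuclease, went the other way, with 11.1, 14.0 and 14.7 CPM in PBS and 19.7, 21.2 and 19.7 in IL-3 (log2 fold change 0.60, adjusted p 0.00132).

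Rsad2, which encodes the antiviral enzyme viperin, had 6.30, 4.03 and 5.37 CPM in PBS and 5.33, 2.17 and 1.63 in IL-3. IL-3 replicate 1 was within the PBS range and the other IL-3 libraries were below it, and the gene was not called (log2 fold change -0.83, adjusted p 0.0656). With all 6 libraries it was called lower by limma-voom (adjusted p 0.0239), with library totals (0.0288) and with no filter (0.00363). Without IL-3 replicate 1 it was called at -1.47 on the log2 scale (adjusted p 0.00109), and without IL-3 replicate 3 it was at -0.51 (adjusted p 0.258). Mx1 was at 2.38 ± 0.847 and 1.91 ± 0.448 CPM and was not called. Mx2 had 1, 0 and 0 counts in PBS and 1, 3 and 2 counts in IL-3, which is within the limit that a count of 0 allows (0.233 to 0.296 CPM, for 3 counts per library).

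The ubiquitin-like system of ISG15 was lower in 1 of its 3 genes. TRIM25 is the ubiquitin ligase that activates RIG-I. Trim25 (chromosome 11, 88999376 to 89020293) had 56.4, 51.7 and 52.4 CPM in PBS and 27.1, 32.2 and 31.2 in IL-3. It fell by 0.82 on the log2 scale (SE 0.0859, adjusted p 1.38e-06), with no overlap between groups. Isg15, the modifier itself, had 7.69, 2.72 and 4.05 CPM in PBS and 5.33, 2.17 and 2.56 in IL-3, and Usp18, the protease that removes it, had 3.68, 1.14 and 2.55 CPM in PBS and 3.36, 1.58 and 1.24 in IL-3. In both genes replicate 1 was the highest library of each group, and neither was called (adjusted p 0.255 and 0.613). Isg15, at -0.56 with all libraries, was called at -1.03 without IL-3 replicate 1 (adjusted p 0.0465) and was at -0.044 without PBS replicate 1 (adjusted p 0.944).

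The replicate 1 libraries were also the highest in other genes of wide spread. In 7 of the 40 tested genes the highest PBS library was more than 2-fold above the lowest, and in 6 of these 7 the highest was PBS replicate 1 (Isg15, Ifit2, Ifitm6, Oasl2, Usp18 and Cxcl10). In IL-3 the number was also 7, with replicate 1 the highest in 5 (Isg15, Rsad2, Usp18, Xaf1 and Rtp4). The median ratio of highest to lowest library over the 40 genes was 1.27 in each group. These genes were picked out after their values were seen. Over all 40 genes, PBS replicates 1, 2 and 3 were the highest of their group in 16, 13 and 11. The median over the 40 genes of the deviation of PBS replicate 1 from its group mean was 0.037 on the log2 scale. IL-3 replicates 1, 2 and 3 were the highest in 19, 12 and 9.

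**Figure D4:**
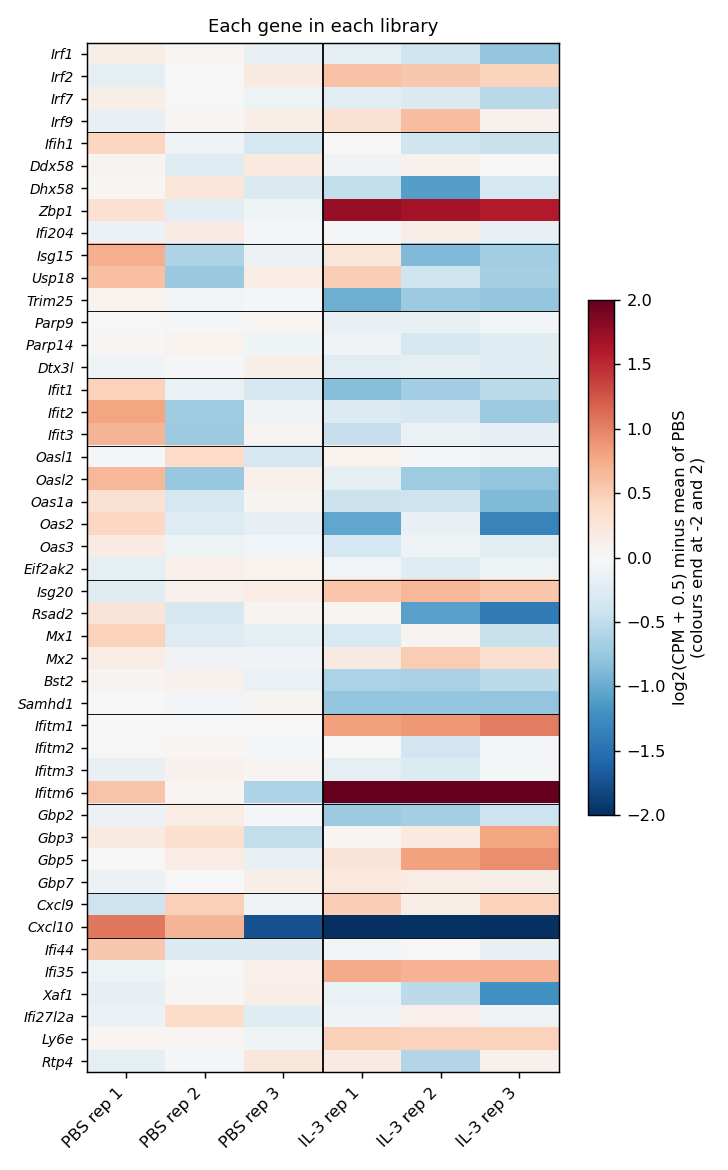
Each of the 46 genes (rows, grouped by role between thin lines) in each of the 6 libraries, as log2(CPM + 0.5) minus the mean of the PBS libraries. The rows of Zbp1 and Ifitm6 are red in all IL-3 libraries and Cxcl10 is blue in all IL-3 libraries and in PBS replicate 3, while Isg15, Usp18, Ifit2 and Oasl2 are reddest in PBS replicate 1.

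Of the IFIT genes, whose products bind the ends of viral RNA, Ifit2 was tested and Ifit1 and Ifit3 did not pass the filter. Ifit2 had 60, 16 and 28 counts in PBS and 21, 24 and 18 counts in IL-3. PBS replicate 1 was above all others and the remaining libraries overlapped, and the gene was not called (log2 fold change -0.70, adjusted p 0.167). The value was -0.10 without PBS replicate 1, and -1.03 with a call (adjusted p 0.0289) without PBS replicate 2. Ifit1 had 21, 11 and 9 counts in PBS and 4, 6 and 8 counts in IL-3, with every IL-3 library below every PBS library. Ifit3 had 10, 0 and 4 counts in PBS and 1, 3 and 3 counts in IL-3, and shared 51.2% of its 50-mers with Ifit3b.

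The genes of the enzymes that are activated by double-stranded RNA, the oligoadenylate synthetases and the kinase PKR, had negative log2 fold changes in all 5 that were tested. Oas1a was called lower, going from 4.49 ± 1.12 to 2.83 ± 0.572 CPM (SD, n = 3 each), or -0.68 on the log2 scale (adjusted p 0.0449). The adjusted p ranged from 0.0144 to 0.195 over the alternatives, and the call was lost without PBS replicate 1 or 3 or without any of the IL-3 replicates, where the log2 fold change lay between -0.77 and -0.49. Oas1a shared 57.6% of its 50-mers with Oas1g and Oas1b, and after summing with Oas1g the log2 fold change was -0.64 (adjusted p 0.0188).

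Oasl2 and Oas2 were not called at -0.80 and -1.20 on the log2 scale (adjusted p 0.0940 and 0.0676). With all 6 libraries both were called lower with library totals (adjusted p 0.0419 and 0.0364) and with no filter (0.0239 and 0.0383), and Oas2 also by limma-voom (0.0383). Oasl2 was at -1.13 and called (adjusted p 0.00957) without PBS replicate 2 and at -0.35 without PBS replicate 1. Oas2 rested on few reads, with 24, 12 and 13 counts in PBS and 4, 14 and 3 in IL-3, and IL-3 replicate 2 lay within the PBS range. Without that library Oas2 was at -2.15 with an adjusted p of 0.00923, and without IL-3 replicate 3 it was at -0.79 (adjusted p 0.272). Eif2ak2, which encodes PKR, was at 24.7 ± 2.60 and 22.4 ± 1.59 CPM (adjusted p 0.345), and Oas3 was at 2.79 ± 0.349 and 2.33 ± 0.254 CPM (adjusted p 0.455).

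Guanylate-binding proteins, which attack the vacuoles of intracellular pathogens and are typical targets of type II interferon, went both ways within a cluster of 144 kb on chromosome 3. Gbp2 (142620602 to 142638008) had 10.3, 12.5 and 10.9 CPM in PBS and 6.61, 6.83 and 8.30 in IL-3, and fell by 0.63 on the log2 scale (adjusted p 0.00417). Gbp5 had 9, 10 and 7 counts in PBS and 10, 20 and 24 counts in IL-3. All 3 IL-3 libraries were higher in CPM, with a log2 fold change of 1.03 (SE 0.372, adjusted p 0.0391). The call was lost without any 1 of the PBS replicates and without IL-3 replicate 2 or 3, where the log2 fold change lay between 0.85 and 1.16. With all 6 libraries it was kept with DESeq2 size factors (adjusted p 0.0385). It was lost with the DESeq2 test (0.206), limma-voom (0.0535), library totals (0.0759) and no filter (0.0585). Gbp7 and Gbp3 were at 0.16 and 0.50 on the log2 scale and were not called, and Gbp7 was at -0.0061 with scaling by library totals.

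Of the chemokines induced by interferon, which draw CXCR3-bearing T and NK cells, Cxcl10 was called lower and Cxcl9 did not pass the filter. Cxcl10 (chromosome 5, 92346638 to 92348889) had 9.74, 7.36 and 0.97 CPM in PBS and 0.69, 0.75 and 0.47 in IL-3. The IL-3 libraries were all below PBS, but PBS replicate 3, with 11 counts, lay much closer to the IL-3 libraries, with 7, 9 and 6 counts, than to the 119 and 84 counts of the other PBS libraries. The log2 fold change was -3.24 (SE 0.620, adjusted p 0.000605) and lay between -3.75 and -2.71 with 1 library left out. It was -2.71 without PBS replicate 1 and -3.75 without PBS replicate 3. The exons of Art3 overlap Cxcl10 on the opposite strand, and no source used here says if strand entered the counting. Cxcl9 had 3, 10 and 5 counts in PBS and 9, 7 and 11 counts in IL-3.

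The ADP-ribosylation genes Parp9, Parp14 and Dtx3l, whose products act together in interferon signalling and DNA repair and whose genes lie within 140 kb of chromosome 16, showed no call. Dtx3l had 26.8, 27.6 and 30.9 CPM in PBS and 24.3, 24.7 and 23.9 in IL-3, and every IL-3 library was lower (log2 fold change -0.23, adjusted p 0.0742). Parp9, which lies head to head with it, was at 18.8 ± 0.571 and 17.4 ± 0.672 CPM, and Parp14 at 27.6 ± 1.46 and 23.9 ± 2.21 CPM. The adjusted p was 0.451 and 0.119.

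Of the remaining 6 genes, Ifi35 and Ly6e were called higher. IFI35 is a cytoplasmic protein that is induced by interferon, and Ifi35 (chromosome 11, 101448407 to 101458698) had 27.5, 29.6 and 31.9 CPM in PBS and 49.96, 48.1 and 48.2 in IL-3 (log2 fold change 0.72, SE 0.0829, adjusted p 4.25e-06). Ly6e, which encodes a membrane-anchored surface protein that restricts coronavirus entry, had 354, 356 and 325 CPM in PBS and 477, 476 and 476 in IL-3 (log2 fold change 0.47, adjusted p 2.18e-06). In both genes the groups were clearly separated. Xaf1, a gene that promotes apoptosis, was at 3.73 ± 0.436 and 2.36 ± 1.02 CPM, Ifi27l2a at 3.92 ± 1.02 and 3.82 ± 0.297 CPM and Rtp4 at 1.38 ± 0.270 and 1.27 ± 0.452 CPM, none of them called. Xaf1 was called lower by limma-voom (adjusted p 0.0497) and with library totals (0.0344), and at -1.004 without IL-3 replicate 1 (adjusted p 0.0225). It was at -0.68 with all libraries and at -0.37 without IL-3 replicate 3 (adjusted p 0.342).

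Upstream of these genes, transcripts of the interferons were near or at 0 in both groups. Ifnb1 and Ifng had 0 counts in all 6 libraries, and 10 of the 28 listed ligand, receptor and signalling genes that are in the table did not pass the filter. Of the 18 tested, 6 were called higher and 4 lower, which is 33.3% and 22.2%, beside 18.0% and 20.2% of all genes tested. The receptor chains moved unequally. Ifnar1 was at 63.6 ± 3.08 and 65.5 ± 2.82 CPM and was not called, while Ifnar2 fell from 132 ± 2.54 to 86.1 ± 4.30 CPM (log2 fold change -0.62, adjusted p 5.63e-07). Ifngr1 fell from 94.0 ± 5.97 to 66.1 ± 3.31 CPM, whereas Ifngr2 rose from 130 ± 3.67 to 233 ± 10.7 CPM, with log2 fold changes of -0.51 and 0.84. One chain of each receptor was called lower, and the other was not.

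Among the kinases and STAT factors of the pathway, Jak2 rose by 1.07 and Jak1 by 0.40 on the log2 scale. Tyk2 was at 40.8 ± 3.01 and 40.7 ± 3.19 CPM and was not called. Stat2 was at 28.7 ± 0.472 and 30.2 ± 2.23 CPM and was not called. Socs1, the feedback inhibitor of JAK kinases that limits interferon signalling and is also a STAT5 target, went from 49.4 ± 4.76 to 860 ± 25.2 CPM and rose by 4.12 on the log2 scale. Socs3, of the same family, was at 3.63 on the log2 scale.

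Sensors and adaptors that lead to interferon production were lower in 11 and higher in 4 of the 28 genes tested, which is 39.3% and 14.3%, beside 20.2% and 18.0% of all genes tested. Irf8, a factor of monocyte and dendritic cell development that also drives interferon genes, had 37.0, 34.7 and 33.4 CPM in PBS and 10.2, 11.6 and 10.3 in IL-3, a log2 fold change of -1.71 (adjusted p 3.14e-09). Tlr13, a sensor of bacterial ribosomal RNA, Unc93b1, the chaperone of endosomal Toll-like receptors, and Rnf125, a ubiquitin ligase that acts on RIG-I, fell by 1.34, 1.16 and 1.23 on the log2 scale. Irf4, a factor related to Irf8, rose from 0.802 ± 0.229 to 13.7 ± 2.82 CPM (log2 fold change 4.08, adjusted p 2.74e-09), and Irf3 rose by 0.40.

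A second list of 89 interferon-stimulated genes outside the 46 was more one-sided. Of its 77 tested genes 27 were called lower and 3 higher, or 35.1% and 3.90%, beside 20.2% and 18.0% of all genes tested. Another 47 were not called, and the median over the 77 was -0.28 on the log2 scale. Ifi30, a lysosomal thiol reductase of antigen processing, went from 218 ± 19.4 to 96.2 ± 7.28 CPM (log2 fold change -1.18, adjusted p 2.93e-09). Psmb9, a subunit of the immunoproteasome, and Uba7, the activating enzyme of ISG15, fell by 1.18 and 0.77 on the log2 scale. The called-higher genes included Slfn2, which rose by 1.23, and Cd274, which encodes the checkpoint ligand PD-L1 and rose from 85.6 ± 2.41 to 122 ± 1.92 CPM. The part of the monocyte and macrophage RNA, of whose 12 markers 10 were lower and 2 higher, in these falls was not tested.

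**Figure D5:**
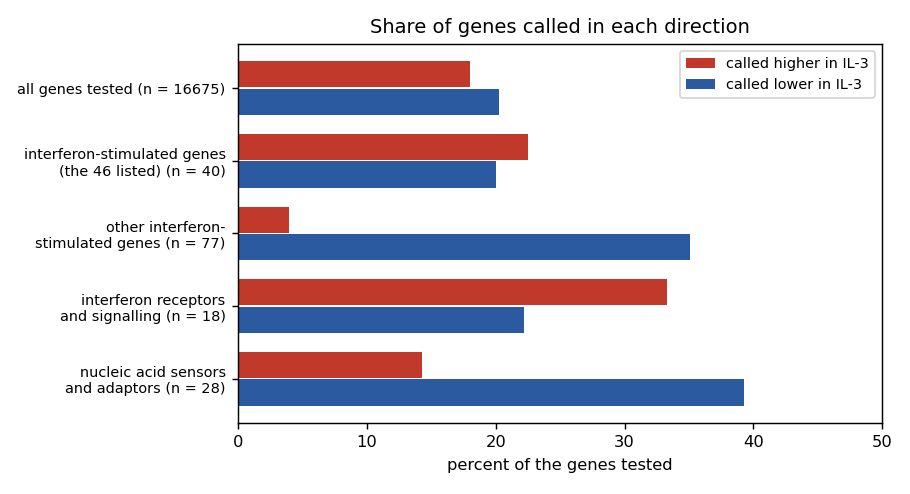
Percent of tested genes called higher (red) and lower (blue) in IL-3 among all genes tested and in 4 lists, with the number tested in brackets. The interferon-stimulated genes lie near all genes in both directions, whereas the second list has a larger share lower (35.1%) than higher (3.90%).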

How the data were processed

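Poly(A) RNA of 6 BMBA libraries was sequenced after whole-transcriptome amplification. The authors deposited raw read counts per gene symbol, made with cutadapt 3.4 and Bowtie2 against reference RNA (versions as in the submitters' processing notes). The notes name GRCm39 and the methods of the study name GRCm38, and the table holds no coordinates. No molecular identifiers are described, so reads copied by PCR were counted separately, and intervals and limits cover counting error only. Every sample column was used.

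Counts were filtered with filterByExpr, scaled by TMM and tested with the edgeR 4.0.16 quasi-likelihood F test in R 4.3.3, with the group as the only term, two-sided and with Benjamini-Hochberg adjustment over all genes tested. SE was derived from F. CPM is after TMM and is given as mean ± SD. The p-values measure the spread between cultures, whose mice are not described. Alternatives were DESeq2 1.42.0, limma-voom (limma 3.58.1), other scalings, filters and thresholds, a replicate block and leaving out each library. On simulated counts for this comparison, 79.4% of 194 genes changed 2-fold were called among 16460 genes tested, and 0.105% of unchanged genes. The changed genes were a small part of the simulated set, whereas 38.2% of genes tested were called in the data. The simulated shares therefore need not hold for the data.

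Genes named are the 46, the 5 called genes with the smallest adjusted p of each pathway list, a fixed set of receptor, JAK, STAT and IRF genes (1 of them not reported here), and the most abundant gene of each marker list described. The genes and lists were chosen with earlier results of these data known. Cd209d and Ly6g were named after their values were seen. Coordinates and lengths came from GENCODE M21 (GRCm38). Shared sequence is the percentage of 50-mers found in transcripts of another symbol.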

Additional observations from a re-analysis of the deposited data

How the results depend on the processing

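Of the 17 genes called among the 46, 13 kept their direction and their call under all scalings, filters, tests, the replicate block and left-out libraries, and 13 were called at an adjusted p below 0.01. The others were Irf9, Oas1a, Dhx58 and Gbp5. Scaling by library totals gave 18 lower genes of the 46, a median of -0.38 and 8 lower genes of receptors and signalling. Of all genes called, the share called higher went from 47.1% to 25.2%. With the test set against a fold of 1.5 the calls were 3 higher and 3 lower of the 46, 1 and 5 of the second list, 0 lower of receptors and signalling, and 1 and 6 of sensors and adaptors, which follows from the higher limit. With 1 library left out, 7 to 8 of the 46 were higher and 7 to 9 lower, and their median ranged from -0.28 to -0.12. The median was -0.12 without PBS replicate 1. The labels do not state that the replicate numbers pair the libraries. Over all genes tested, the correlations of their deviations from the group means were 0.00043, -0.018 and -0.029. Counting noise enters these values, so they cannot exclude a pairing. With the replicate number as a block, 8 of the 46 were higher and 7 lower, Oas1a, Dhx58 and Gbp5 lost their calls (adjusted p 0.0614, 0.0758 and 0.0643), and Rsad2 gained one (adjusted p 0.028). Sums with near-identical genes were chosen after seeing the data.

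Some values changed sign, none of them called. Ddx58 was at 0.0028 with DESeq2 size factors, 0.011 with no filter, 0.0039 with the DESeq2 test, 0.011 with limma-voom and 0.0054 with the block. Tyk2 was at 0.00091, 0.0093, 0.0019 and 0.00080 under the first 4 of these. Library totals gave Gbp7 -0.0061, Ifnar1 -0.12 and Stat2 -0.090. With 1 library left out the log2 fold changes ranged as Ddx58 -0.12 to 0.098, Tyk2 -0.067 to 0.054, Mx1 -0.53 to 0.017, Usp18 -0.81 to 0.12, Ifi204 -0.10 to 0.069, Ifi27l2a -0.17 to 0.19 and Rtp4 -0.30 to 0.14. Mx1 and Usp18, at -0.32 and -0.30 with all libraries, turned without PBS replicate 1. The cause of these changes was not tested. Of the 25 genes below 10 CPM, 6 did not pass the filter.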
